A study of Mus musculus with 36 samples.

Results

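Haemoglobin transcripts in brain tissue were described through 5 genes: the beta-globin genes Hbb-bt and Hbb-bs, the alpha-globin genes Hba-a1 and Hba-a2, and Alas2, taken by name from a table of 22447 genes as a measure of blood in the dissected tissue. The RNA came from the hypothalamus of 19 mice, which fall into 4 groups. The enhancer sgRNA group (4 mice, 3 to 7 months old) and the promoter sgRNA group (6 mice, 3 to 9 months) were Sim1 +/- animals labelled with a guide RNA for an enhancer or for the promoter. The Sim1 heterozygous group (4 mice, 4 to 9 months) was Sim1 +/- with no guide RNA, and the wild-type group (5 mice, 3 to 9 months) had no guide RNA either. All mice were B6/FVB except Sim1 heterozygous F_3 and wild type F_2, which were B6, and 6 of the 19 were male. Sim1 encodes a transcription factor of hypothalamic neurons, and the mutant has 1 working copy. The sources used here do not give how the activator and the guides were delivered, or whether the animals were perfused before dissection. Nothing in the labels says whether libraries of a group came from separate litters or preparation days, so the p-values below measure the spread between these libraries.

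Haemoglobin is a tetramer of alpha and beta chains, each carrying a haem group, and it is the main protein of red cells. Mouse red cells lose their nucleus but young ones, the reticulocytes, still hold globin messenger RNA, so blood left in a dissected tissue adds globin reads to a library. Alas2 encodes the erythroid form of 5-aminolevulinate synthase, the first and rate-limiting enzyme of haem synthesis, and its transcript is also carried by reticulocytes. Globin transcripts are known from some neurons and glia as well. In bulk tissue, fewer cells of a type and less RNA per cell cannot be told apart.

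Per the deposited table, in GRCm38, Hbb-bt (ENSMUSG00000073940) lies on chromosome 7 from 103812524 to 103813996 and Hbb-bs (ENSMUSG00000052305) from 103826534 to 103828096, both on the minus strand. Hba-a1 (ENSMUSG00000069919) lies on chromosome 11 from 32283511 to 32284465 and Hba-a2 (ENSMUSG00000069917) from 32296489 to 32297298, both on the plus strand. Alas2 (ENSMUSG00000025270) lies on the plus strand of the X chromosome from 150547375 to 150570638. All 5 are annotated as protein-coding. Hba-a1 and Hba-a2 are near-identical copies, as Hbb-bt and Hbb-bs are close relatives, so the split of reads within a pair is uncertain, while the sum of a pair is less so.

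The 120 bases before the RefSeq start of each gene (GRCm38.p6, all 5 genes matched by symbol) are shown because 4 of the genes varied together across the libraries and the fifth did not. The RefSeq starts differ from the gene bounds of the deposited table. The windows of Hba-a1 and Hbb-bs lie wholly inside those bounds, and the other windows overlap them in part. Capitals mark matches, on either strand, to AGATAA or TGATAA (the GATA motif), CCNCNCCC (the CACCC box), CCAAT and TATAA, and touching or overlapping matches run together.
Hbb-bt, chr7:103813924-103814043, minus strand: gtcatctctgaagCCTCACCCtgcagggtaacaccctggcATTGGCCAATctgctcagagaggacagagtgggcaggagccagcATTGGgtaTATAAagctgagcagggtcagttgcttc
Hbb-bs, chr7:103827929-103828048, minus strand: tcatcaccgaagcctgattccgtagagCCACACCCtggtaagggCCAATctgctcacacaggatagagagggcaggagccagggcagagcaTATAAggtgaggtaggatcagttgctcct
Hba-a1, chr11:32283552-32283671, plus strand: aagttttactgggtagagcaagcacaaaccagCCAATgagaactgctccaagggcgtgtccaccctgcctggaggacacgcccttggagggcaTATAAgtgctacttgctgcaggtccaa
Hba-a2, chr11:32296372-32296491, plus strand: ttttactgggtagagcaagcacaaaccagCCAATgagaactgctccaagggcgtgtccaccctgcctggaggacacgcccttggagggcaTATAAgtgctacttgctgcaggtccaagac
Alas2, chrX:150547297-150547416, plus strand: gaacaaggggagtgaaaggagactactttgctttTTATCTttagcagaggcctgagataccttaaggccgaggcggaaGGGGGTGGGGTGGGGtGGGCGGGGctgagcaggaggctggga

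The windows of Hba-a1 and Hba-a2 were the same sequence offset by 3 bases, with 247 of 247 aligned bases alike over the 250 bases before each start. The windows of Hbb-bt and Hbb-bs, best aligned without gaps, shared 127 of 249 bases, and their longest common run was 14 bases. Within the 120 bases, CCAAT and TATAA were found in all 4 globin windows and not in that of Alas2, against 21.3% and 11.8% of all 32851 windows of this length. The CACCC box was found in the windows of Hbb-bt, Hbb-bs and Alas2, against 34.6% of all windows. The GATA motif was found in the window of Alas2, against 7.63% of all windows, and within 250 bases also in those of Hbb-bs, Hba-a1 and Hba-a2, against 16.6%. These are matches of letters, not measured binding sites.

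The values are the authors' normalized counts, in which each library's read counts have been divided by a single factor of that library. Genes of different length are not compared by them. The reads recovered from them numbered 14.1 to 84.8 M per library. Sim1 itself averaged 299.9 normalized counts with the enhancer sgRNA, 246 with the promoter sgRNA and 211 in the Sim1 heterozygous group, against 423 in wild type. Libraries that stood apart in haemoglobin were Sim1 heterozygous F_3 and F_4 and wild type F_2. The contrasts of Hbb-bt, Hbb-bs, Hba-a1 and Alas2 with the Sim1 heterozygous group and the correlations among these 4 genes are also given without them.

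Hbb-bt, a beta-globin gene of the adult mouse, had 171, 265, 343 and 288 normalized counts in F_1, F_2, M_1 and M_3 of the enhancer sgRNA group. It had 202, 179, 262, 171, 209.5 and 335 in F_1, F_2, F_3, F_5, M_1 and M_3 of the promoter sgRNA group. Sim1 heterozygous F_1, F_3, F_4 and M_1 had 270.2, 936, 1125 and 220.3, against 91.2, 609, 124, 96.5 and 172 in F_1, F_2, F_3, F_4 and M_1 of the wild type. The 2 highest libraries were thus Sim1 heterozygous, the third was the B6 wild-type animal, and the groups overlapped. The means were 267 ± 72.1 (SD, n = 4) with the enhancer sgRNA, 227 ± 62.1 (SD, n = 6) with the promoter sgRNA and 638 ± 460.1 (SD, n = 4) in the Sim1 heterozygous group, against 219 ± 221 (SD, n = 5) in wild type.

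Hbb-bs, the second adult beta-globin gene, had 1923, 4789, 3214 and 1727 normalized counts in the enhancer sgRNA libraries, in the same order. The promoter sgRNA libraries had 1934, 1666, 3524, 3403, 3334 and 4224. The Sim1 heterozygous libraries had 3535, 13654, 8517 and 4127, against 1760.5, 9679.7, 2178, 2162 and 2394 in wild type. The same 3 libraries were highest, with Sim1 heterozygous F_3 first, and the other 16 had at most 4789. The means were 2913 ± 1414 (SD, n = 4) with the enhancer sgRNA, 3014 ± 996 (SD, n = 6) with the promoter sgRNA and 7458 ± 4690.5 (SD, n = 4) in the Sim1 heterozygous group, against 3635 ± 3387 (SD, n = 5) in wild type.

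Hba-a1, an alpha-globin gene of the adult, had 755, 2185, 1289.8 and 1220.1 normalized counts with the enhancer sgRNA. It had 756, 634, 2099, 1145, 1127 and 1698 with the promoter sgRNA. The Sim1 heterozygous libraries had 1938, 4977, 4881 and 1634, against 808, 3498, 718, 796 and 1194 in wild type. Sim1 heterozygous F_3 and F_4 lay close together, and the lowest Sim1 heterozygous library exceeded every wild-type library other than F_2. The means were 1362 ± 597 (SD, n = 4) with the enhancer sgRNA, 1243 ± 561 (SD, n = 6) with the promoter sgRNA and 3358 ± 1819 (SD, n = 4) in the Sim1 heterozygous group, against 1403 ± 1186 (SD, n = 5) in wild type.

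Alas2, the haem synthesis enzyme, had 72, 221, 157 and 140.0 normalized counts with the enhancer sgRNA. It had 104, 76.9, 148, 109, 135 and 279 with the promoter sgRNA. The Sim1 heterozygous libraries had 195, 419.9, 449 and 202, against 83.6, 370.4, 84.2, 53.5 and 122 in wild type. The order of the highest libraries was Sim1 heterozygous F_4, Sim1 heterozygous F_3 and wild type F_2, and promoter sgRNA M_3 came next. The means were 147 ± 61.2 (SD, n = 4) with the enhancer sgRNA, 142 ± 71.4 (SD, n = 6) with the promoter sgRNA and 316 ± 137 (SD, n = 4) in the Sim1 heterozygous group, against 143 ± 129.6 (SD, n = 5) in wild type.

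**Figure D1:**
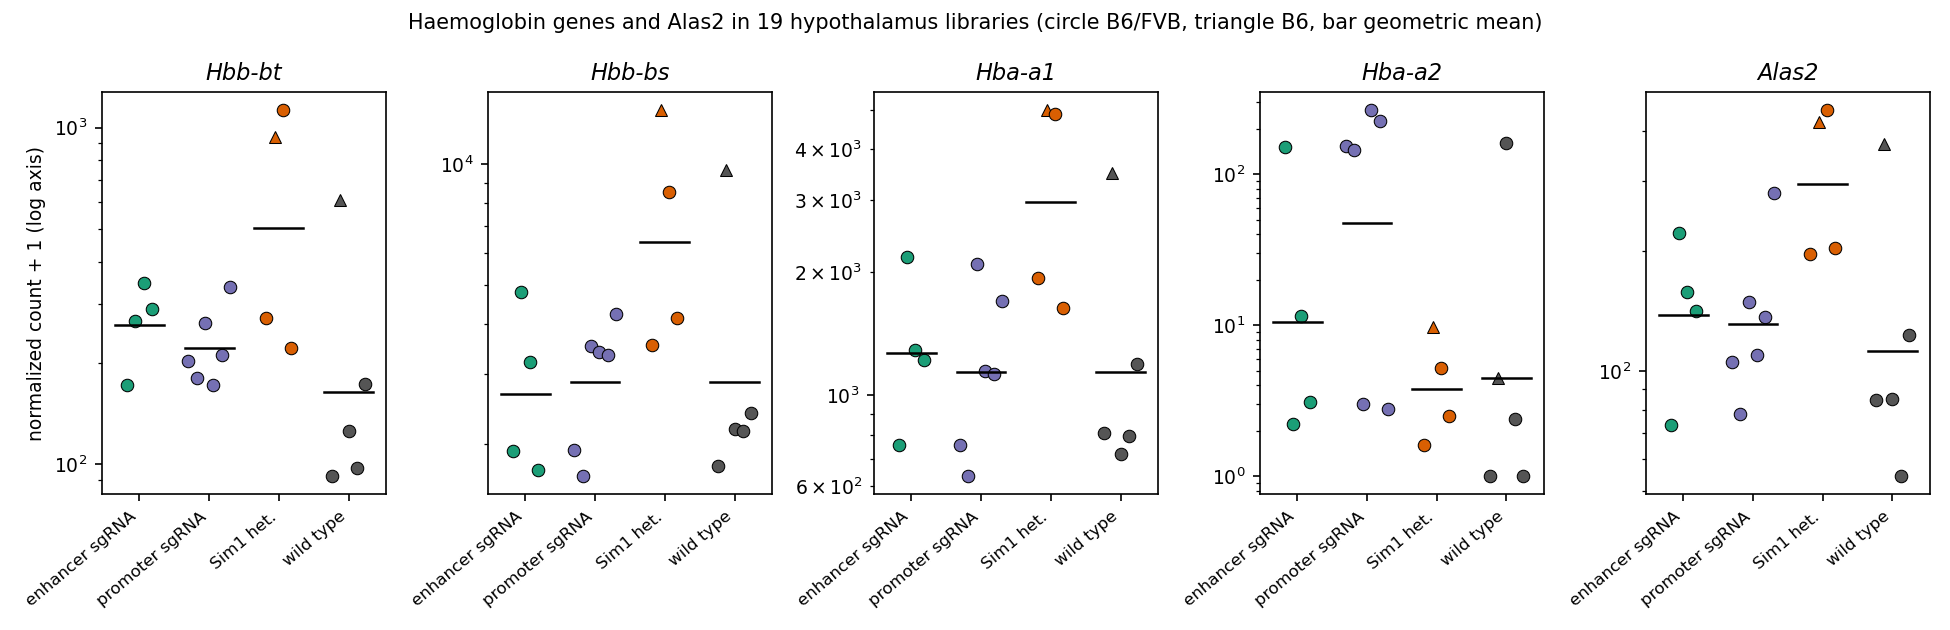
Normalized count plus 1 (log axis) of each gene in each of the 19 libraries, by group, with the B6 animals as triangles and a bar at the geometric mean. In Hbb-bt, Hbb-bs, Hba-a1 and Alas2 the same 3 libraries, 2 Sim1 heterozygous and 1 wild type, are highest, and Hba-a2 falls into a high and a low set.

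For these 4 genes the Sim1 heterozygous group had the highest mean. Its gap to the next mean was smaller than its own SD for Hbb-bt and Hbb-bs and larger for Hba-a1 and Alas2. The next mean was that of the enhancer sgRNA group in Hbb-bt and Alas2 and that of wild type in Hbb-bs and Hba-a1. In each of the 4 genes the means of the enhancer sgRNA, promoter sgRNA and wild-type groups differed from each other by less than the SD of any of these groups. Over all 19 libraries the highest value was 12.3 times the lowest for Hbb-bt, 8.20 times for Hbb-bs, 7.85 times for Hba-a1 and 8.39 times for Alas2.

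Sim1 heterozygous animals were set against wild type to see what accompanies the loss of 1 Sim1 copy. The summed normalized count of the 4 globin genes was 11457 ± 6781 (SD, n = 4) in the Sim1 heterozygous group, against 5290 ± 4768 (SD, n = 5) in wild type. Mean levels in the Sim1 heterozygous group stood at 292% of wild type for Hbb-bt, 205% for Hbb-bs, 239% for Hba-a1 and 222% for Alas2. In limma, on log2(normalized count + 1) with all 19 libraries, the log2 fold change was 1.61 for Hbb-bt (SE 0.506), 1.17 for Hbb-bs (SE 0.469), 1.38 for Hba-a1 (SE 0.465) and 1.38 for Alas2 (SE 0.466). Their unadjusted p-values were 0.00475, 0.0217, 0.00781 and 0.00804, and 4 of the 5 genes thus lay below 0.05, where 768 of 20505 genes tested did (3.75%). None of the 5 passed after adjustment over all genes (limma adjusted p = 0.868 for these 4), and 0 genes of the table did (0.0%). The two-sided exact permutation test, over 126 splits, gave p = 0.0794 for Hbb-bt, 0.127 for Hbb-bs, 0.0635 for Hba-a1 and 0.0635 for Alas2, with the smallest possible p at 0.0159. Adjusted over the 30 tests of genes and comparisons, these p-values were at least 0.236.

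Among the B6/FVB animals alone, all 3 Sim1 heterozygous libraries lay above all 4 wild-type libraries for Hbb-bt, Hbb-bs, Hba-a1 and Alas2. Complete separation in this direction was seen for 490 of 20505 genes (2.39%). Hbb-bt averaged 538 ± 508 (SD, n = 3) against 121 ± 36.9 (SD, n = 4), and Alas2 averaged 282 ± 145 (SD, n = 3) against 85.9 ± 28.1 (SD, n = 4). The exact permutation p was 0.0571 for each of the 4 genes, which is the smallest that 35 splits allow. In limma without the B6 animals the log2 fold changes were 1.77 for Hbb-bt (SE 0.422), 1.23 for Hbb-bs (SE 0.369), 1.52 for Hba-a1 (SE 0.422) and 1.61 for Alas2 (SE 0.405), with an adjusted p of 0.999. Each B6 group held 1 animal, so no value within B6 has a spread: the Sim1 heterozygous one had 936 normalized counts of Hbb-bt and the wild-type one 609. Without all 3 of the highest libraries, a setting chosen after the data were seen that leaves 2 Sim1 heterozygous libraries, the log2 fold changes were 0.95 for Hbb-bt, 0.81 for Hbb-bs, 0.99 for Hba-a1 and 1.12 for Alas2.

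The authors' deposited table gave, for Sim1 heterozygous over wild type, a log2 fold change of 1.67 with a false discovery rate of 0.00905 for Alas2 and of 2.05 with a rate of 0.0287 for Hbb-bt. There, 19 of 16414 genes (0.116%) had a rate below 0.05. Hba-a1 stood there at 1.61 (rate 0.409), Hbb-bs at 1.26 (0.975) and Hba-a2 at -3.19 (1.00).

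The authors' stabilized values on a log2 scale ordered the libraries differently from the normalized counts. For Hbb-bs the stabilized value minus log2(normalized count + 1) was -1.08 and -0.95 in the 2 B6 libraries and 0.53 to 1.49 in the 17 B6/FVB libraries. For Hba-a1 this difference was -0.82 and -0.79 in the B6 libraries and 0.43 to 1.57 in the B6/FVB libraries. For Hbb-bt it was -0.28 and -0.14 in the B6 libraries and 0.77 to 2.52 in the B6/FVB libraries. For Alas2 it was positive in all, at 0.13 and 0.16 in the B6 libraries and 0.90 to 2.51 in the B6/FVB libraries. On the stabilized scale all 4 Sim1 heterozygous libraries lay above all 5 wild-type libraries in Hbb-bt, Hbb-bs, Hba-a1 and Alas2, a separation shared by 423 of 20505 genes (2.06%). Hbb-bt averaged 9.94 ± 0.667 (SD, n = 4) in the Sim1 heterozygous group against 8.95 ± 0.248 (SD, n = 5) in wild type on that scale. Limma on the stabilized values gave adjusted p-values between 0.207 and 0.315 for these 4 genes.

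**Figure D2:**
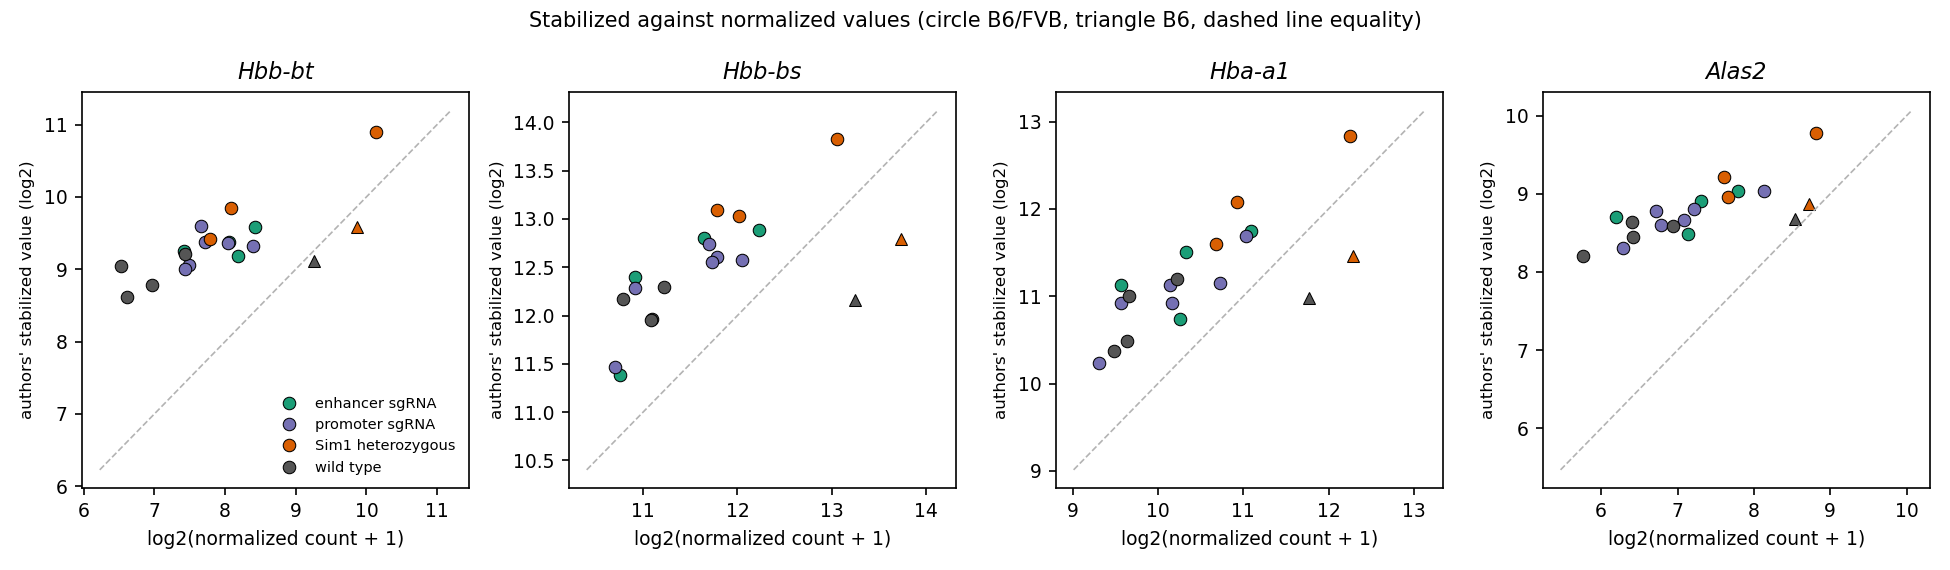
The authors' stabilized value (log2) against log2(normalized count + 1) for 4 of the genes, 1 point per library, with the B6 animals as triangles and a dashed line of equality. For Hbb-bt, Hbb-bs and Hba-a1 both B6 libraries lie below the line and all 17 B6/FVB libraries above it. For Alas2 all libraries lie above the line, the B6 ones nearest to it.

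The promoter sgRNA group was compared with the Sim1 heterozygous group, which asks what differed with the guide. Both contrasts with the Sim1 heterozygous group share its 4 libraries with the comparison above. Mean levels with the promoter sgRNA stood at 35.5% of the Sim1 heterozygous mean for Hbb-bt, 40.4% for Hbb-bs, 37.0% for Hba-a1 and 44.8% for Alas2. The limma log2 fold changes were -1.18 for Hbb-bt (SE 0.487), -1.16 for Hbb-bs (SE 0.452), -1.37 for Hba-a1 (SE 0.448) and -1.19 for Alas2 (SE 0.449). All 4 had an unadjusted p below 0.05, as did Hba-a2 in the other direction, where 836 of 20505 genes did (4.08%), and none passed after adjustment, nor did any gene of the table (0.0%). The two-sided exact permutation test over 210 splits gave p = 0.0762 for Hbb-bt, 0.0381 for Hbb-bs, 0.0476 for Hba-a1 and 0.0381 for Alas2, each 0.236 when adjusted over the 30 tests. In each of the 4 genes the groups overlapped through promoter sgRNA F_3 or M_3 and Sim1 heterozygous F_1 or M_1. Without the 3 highest libraries the log2 fold changes were -0.08 for Hbb-bt, -0.39 for Hbb-bs, -0.60 for Hba-a1 and -0.51 for Alas2.

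With the enhancer sgRNA, mean levels stood at 41.9% of the Sim1 heterozygous mean for Hbb-bt, 39.1% for Hbb-bs, 40.6% for Hba-a1 and 46.6% for Alas2. The limma log2 fold changes were -0.95 for Hbb-bt (SE 0.541), -1.23 for Hbb-bs (SE 0.502), -1.20 for Hba-a1 (SE 0.498) and -1.16 for Alas2 (SE 0.499). Hbb-bs, Hba-a1 and Alas2 had an unadjusted p below 0.05, where 1368 of 20505 genes did (6.67%), and 0 genes passed after adjustment (0.0%). The exact permutation p over 70 splits was 0.257 for Hbb-bt, 0.114 for Hbb-bs and 0.0857 for both Hba-a1 and Alas2. Without the 3 highest libraries the log2 fold change of Hbb-bt was 0.08, the opposite sign, and those of Hbb-bs, Hba-a1 and Alas2 were -0.51, -0.49 and -0.53. In the authors' deposited table the guide contrasts gave Hbb-bt -1.51 and Alas2 -1.37 for the enhancer sgRNA and -1.24 and -1.19 for the promoter sgRNA (log2), with false discovery rates of at least 0.709. A rate below 0.05 was given there to 7 of 16408 genes for the enhancer sgRNA (0.0427%) and to 9 of 16415 for the promoter sgRNA (0.0548%).

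Set against wild type, the groups with a guide had globin levels within the spread of the libraries. For Hbb-bt the upper part of the wild-type spread was wild type F_2 alone, at 609 normalized counts. The other wild-type libraries had 91.2 to 171.9, against 170.6 to 343.4 with the enhancer sgRNA and 171.3 to 335.3 with the promoter sgRNA. The log2 fold changes with the promoter sgRNA were 0.43 for Hbb-bt (SE 0.459), 0.01 for Hbb-bs (SE 0.425), 0.01 for Hba-a1 (SE 0.422) and 0.19 for Alas2 (SE 0.423). With the enhancer sgRNA they were 0.66 for Hbb-bt (SE 0.518), -0.06 for Hbb-bs (SE 0.480), 0.18 for Hba-a1 (SE 0.476) and 0.22 for Alas2 (SE 0.478). The signs for Hbb-bs, Hba-a1 and Alas2 against wild type, with either guide, turned round in other settings of the fit or with 1 library left out. Among B6/FVB animals only, which leaves out wild type F_2, the log2 fold change of Hbb-bt was 0.89 with the promoter sgRNA (SE 0.357, unadjusted p = 0.0233) and 1.09 with the enhancer sgRNA (SE 0.397, unadjusted p = 0.0140), with an adjusted limma p of 1.00 for each. Without the 3 highest libraries it was 0.87 with the promoter sgRNA (SE 0.198) and 1.03 with the enhancer sgRNA (SE 0.221), with adjusted limma p-values of 1.00 and 0.999. Between the groups with a guide, enhancer over promoter sgRNA gave 0.23 for Hbb-bt (SE 0.490), -0.08 for Hbb-bs (SE 0.454), 0.17 for Hba-a1 (SE 0.451) and 0.03 for Alas2 (SE 0.452). In these 3 contrasts 0 genes passed after adjustment (0.0%), and 433, 259 and 501 genes had an unadjusted p below 0.05 (2.11%, 1.26% and 2.44%), none of them among these 4.

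**Figure D3:**
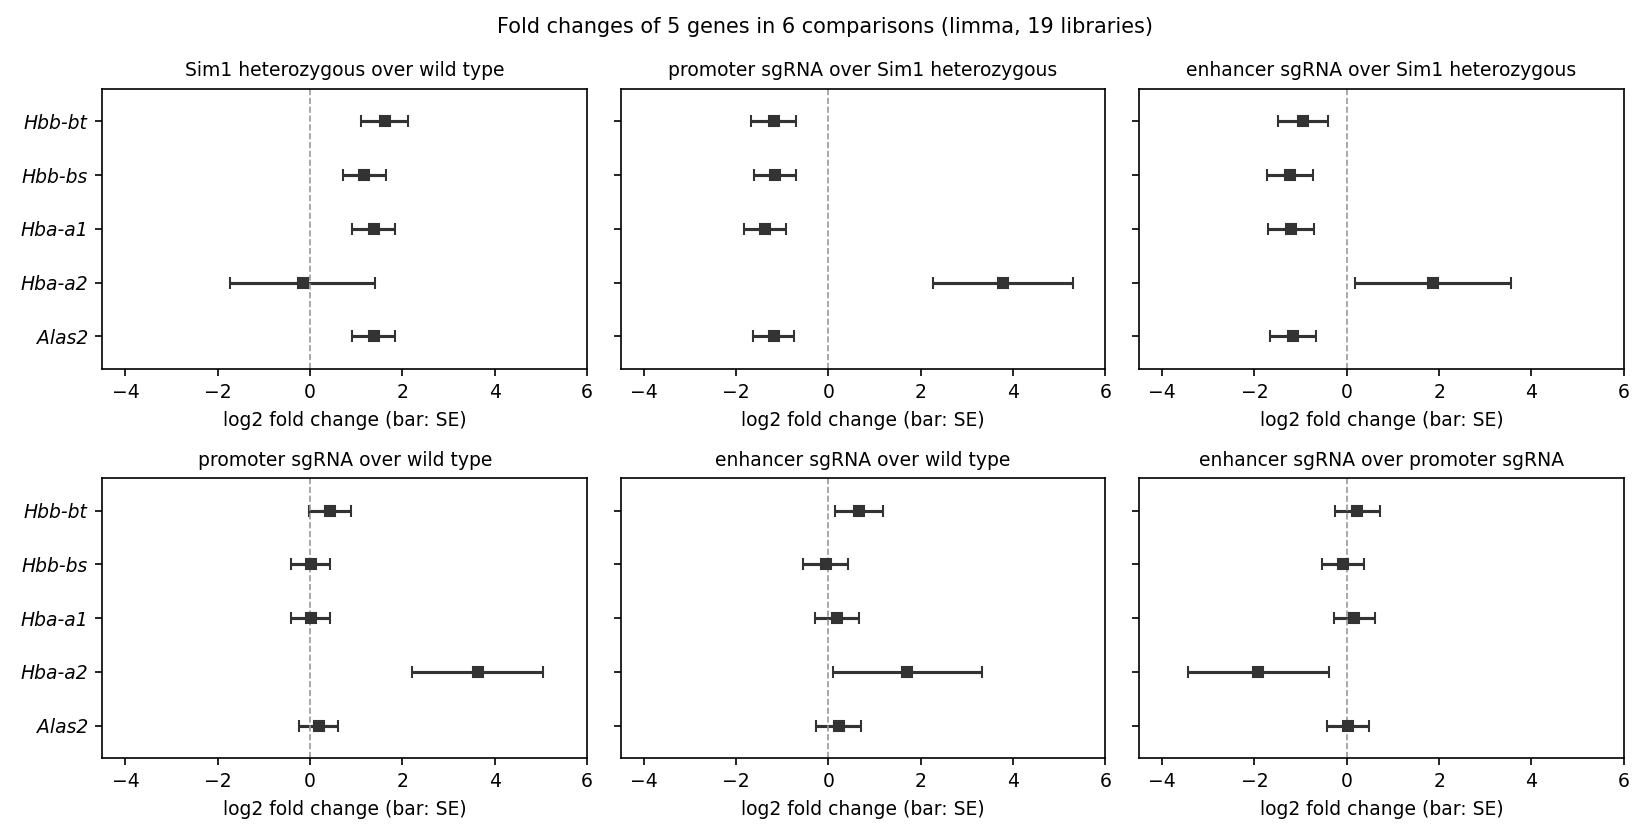
The log2 fold change of each gene in 6 comparisons from limma over 19 libraries, with bars of 1 SE. The 4 genes other than Hba-a2 lie at 1.17 to 1.61 for Sim1 heterozygous over wild type, at -1.37 to -0.95 for either guide over Sim1 heterozygous and between -0.08 and 0.66 in the 3 other comparisons, while Hba-a2 has SEs of 1.43 to 1.68.

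Hba-a2, the second adult alpha-globin gene, followed another pattern. It had 152, 1.2, 10.5 and 2.1 normalized counts in F_1, F_2, M_1 and M_3 of the enhancer sgRNA group and 154, 145, 2, 265, 226 and 1.8 in F_1, F_2, F_3, F_5, M_1 and M_3 of the promoter sgRNA group. The Sim1 heterozygous libraries had 0.6, 8.7, 4.2 and 1.5, against 0, 3.5, 161, 1.4 and 0 in wild type. The libraries thus fell into 6 with at least 145 normalized counts and 13 with at most 10.5, and both kinds occurred in every group except Sim1 heterozygous. The high ones were enhancer sgRNA F_1, promoter sgRNA F_1, F_2, F_5 and M_1, and wild type F_3.

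As a share of the reads assigned to either alpha-globin gene, Hba-a2 took 16.7% to 18.8% in these 6 libraries and at most 0.805% in the other 13. In wild type F_1 and M_1 no read was assigned to it, which allows a share of up to 0.353% and 0.142% (3 counts of the total). Exact (Clopper-Pearson) 95% intervals are given for the other shares, and for these 2 libraries their upper bounds were 0.433% and 0.175%. Limits and intervals cover counting error only. In the high set, enhancer sgRNA F_1 had 143 Hba-a2 reads beside 713 Hba-a1 reads (16.7%, 14.3% to 19.4%). In the low set, enhancer sgRNA F_2 had 2 beside 3690 (0.0542%, 0.00656% to 0.196%). In this pair the library with few Hba-a2 reads had more alpha-globin reads, which did not hold throughout. Enhancer sgRNA M_1, also in the low set, had 5 Hba-a2 reads beside 616 Hba-a1 reads, fewer of both than F_1. Because the copies share nearly all their sequence, the split between them is uncertain. Hba-a2 took at most 18.8% of the alpha-globin reads in any library. The sum of the copies therefore had to lie near the Hba-a1 value, and it does not bear on the split. This sum averaged 1404 ± 548 (SD, n = 4) with the enhancer sgRNA and 1376 ± 491 (SD, n = 6) with the promoter sgRNA. It averaged 3361 ± 1822 (SD, n = 4) in the Sim1 heterozygous group, against 1436 ± 1166 (SD, n = 5) in wild type.

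For Hba-a2 the limma log2 fold change was 3.79 for promoter sgRNA over Sim1 heterozygous (SE 1.51, unadjusted p = 0.0215) and 3.63 over wild type (SE 1.43, unadjusted p = 0.0196). It was 1.87 for enhancer sgRNA over Sim1 heterozygous (SE 1.68), 1.71 over wild type (SE 1.61), -1.92 for enhancer over promoter sgRNA (SE 1.52) and -0.16 for Sim1 heterozygous over wild type (SE 1.57). None passed after adjustment, and the exact permutation p was 0.0857 and 0.0866 for the 2 promoter sgRNA contrasts. The authors' deposited table gave 6.60 for the promoter sgRNA (p = 0.000267, false discovery rate 0.143). Near-absent values make these folds depend on the added pseudocount and on the tool: edgeR on the recovered reads gave -3.00 for Sim1 heterozygous over wild type. Without enhancer sgRNA F_1 the folds of that group were 0.61 over Sim1 heterozygous and 0.42 over wild type.

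**Figure D4:**
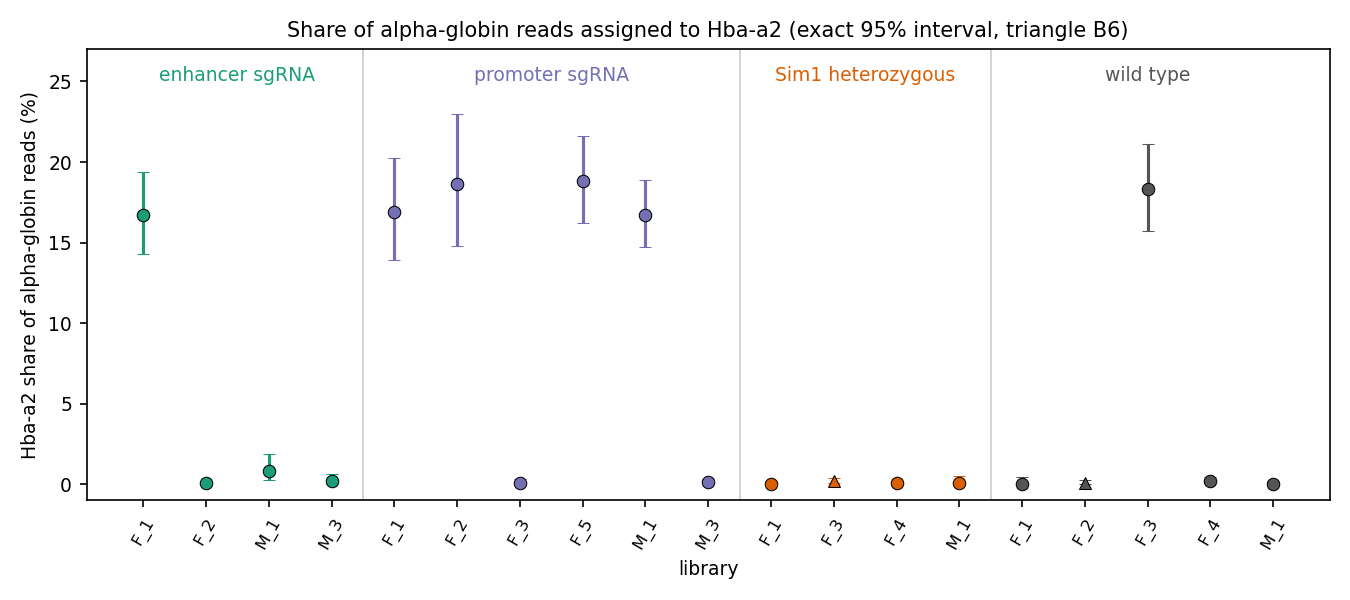
Percent of the alpha-globin reads assigned to Hba-a2 in each library, by group, with exact 95% intervals and B6 animals as triangles. Of the 19 libraries 6 lie between 16.7% and 18.8%, 4 of them with the promoter sgRNA, and 13 lie at or below 0.805%.

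The other 4 genes varied together from library to library. Over 19 libraries the 6 pairs among Hbb-bt, Hbb-bs, Hba-a1 and Alas2 had Pearson r from 0.85 (Hbb-bt with Hbb-bs) to 0.94 (Hba-a1 with Alas2) on the log2 scale, and Spearman rho from 0.69 to 0.93. Permutation p-values (100000 resamples), adjusted over the 10 pairs of the 5 genes, were at most 7e-05 for r and 0.00267 for rho. Without the 2 libraries farthest from the median of the first gene, r ran from 0.73 to 0.91, and within the 17 B6/FVB libraries from 0.76 to 0.92. Without the 3 highest libraries it ran from 0.56 to 0.87 over 16. No r is given for Hba-a2 with these genes, since its libraries fall into separate sets.

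**Figure D5:**
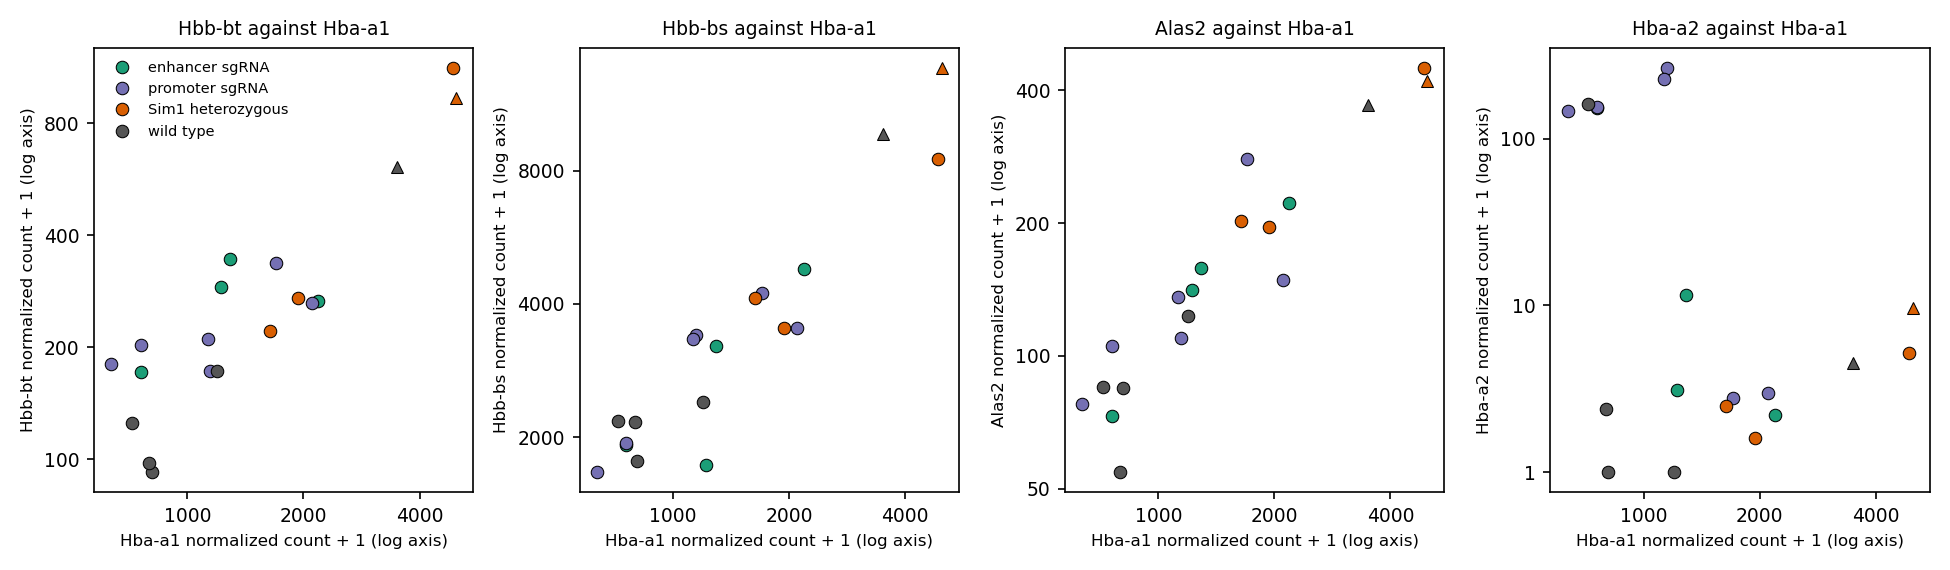
Each point is 1 library, with the Hba-a1 normalized count plus 1 on the x axis and that of Hbb-bt, Hbb-bs, Alas2 or Hba-a2 on the y axis (log axes), coloured by group, with B6 animals as triangles. Hbb-bt, Hbb-bs and Alas2 climb with Hba-a1 (r = 0.90, 0.94 and 0.94), and Hba-a2 lies in 2 bands.

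The proportions among the globin genes were less even than this covariation. Hbb-bt took 4.27% of the reads of both beta-globin genes in the lowest library and 14.3% in the highest. The ratio of Hbb-bs to Hba-a1 normalized counts, not corrected for gene length, ran from 1.42 to 3.03. The library with the lowest ratio was enhancer sgRNA M_3 and the one with the highest was wild type F_3, so neither extreme was one of the 3 libraries with the most haemoglobin.

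No difference by sex or age passed the test. The male minus female log2 difference ran from -1.59 (Hba-a2, SE 1.19) to 0.25 (Alas2, SE 0.352), with adjusted p-values of at least 0.999 in limma. The slope per month of age ran from -0.08 (Hbb-bt, SE 0.0827) to 0.15 (Hba-a2, SE 0.262) on the log2 scale, with adjusted p-values of 0.623 to 0.814. Both highest Sim1 heterozygous animals were 4 months old, and wild type F_2 was 7 months old.

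The other globin genes and several defining erythroid genes were few in reads. The embryonic globin gene Hbb-y averaged 0.953 normalized counts and was at 0 in 13 libraries, and Hbq1b averaged 1.38. Hbq1a, a theta-globin gene, was the best covered of the remaining globin genes, at 14.8 to 49.7. Defining genes of red cell precursors were at or near 0: Gata1, a master transcription factor of the lineage, averaged 0.905 and was at 0 in 12 libraries, Epb42 averaged 1.30, and Slc4a1, the anion exchanger of the red cell membrane, averaged 3.03 with 7 libraries at 0. Klf1, an activator of the beta-globin gene, averaged 10.5 (2.1 to 24.3). Of the red cell membrane and enzyme list, 15 of 17 genes had a row and 14 were tested. For Sim1 heterozygous over wild type 6 of these 14 had a positive and 8 a negative fold change (median log2 -0.01, against -0.01 over all genes), and none passed the test. Of the transcription factors and the erythropoietin receptor, 5 of 7 tested were positive (median log2 0.09), with Bcl11a at 0.00 (SE 0.342), Lmo2 at 0.09 (SE 0.172), Zfpm1 at -0.01 (SE 0.263) and Epor at 0.15 (SE 0.309). The well covered red cell genes Tmcc2, Sptb, Bpgm and Ank1 are also expressed outside blood. Their log2 fold changes were 0.05 (SE 0.157), -0.11 (SE 0.158), 0.13 (SE 0.136) and -0.16 (SE 0.156).

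Haem synthesis and iron supply genes other than Alas2 were read as a list. Of 14 tested, 9 had a positive and 5 a negative log2 fold change for Sim1 heterozygous over wild type (median 0.03), and 0 passed the test. Tfrc, the transferrin receptor, stood at -0.11 (SE 0.109), Fech, the ferrochelatase that inserts iron, at 0.03 (SE 0.0863), Abcb10 at 0.02 (SE 0.103) and Alad, the second enzyme of the pathway, at 0.30 (SE 0.135, unadjusted p = 0.0373). Alas1, the synthase of other tissues, stood at -0.07 (SE 0.111). Of the genes that handle haem and haemoglobin, 10 of 11 tested had a positive fold change in Sim1 heterozygous over wild type (median log2 0.33), where 48.8% of all genes did, and 0 passed. Fth1 and Ftl1, the ferritin chains, stood at 0.37 (SE 0.226) and 0.33 (SE 0.199), Hebp1, a haem-binding protein, at 0.31 (SE 0.187) and Slc48a1, a haem transporter, at 0.02 (SE 0.116). Hmox1, the inducible haem oxygenase, stood at 0.28 (SE 0.129, unadjusted p = 0.0445). Cd163, the haemoglobin scavenger receptor of macrophages, averaged 27.3 normalized counts with the enhancer sgRNA, 34.5 with the promoter sgRNA and 53.0 in the Sim1 heterozygous group, against 29.6 in wild type. The summed normalized count of this list was 113374 and 75921 in Sim1 heterozygous F_3 and F_4 and 49841 and 47958 in F_1 and M_1. In wild type it ran from 44288 to 69841, so the libraries above that range were the 2 of highest haemoglobin. Most of this sum was Fth1, with a mean of 50146 normalized counts, so it says little about the other genes of the list. With the enhancer sgRNA all 11 were negative against Sim1 heterozygous (median log2 -0.30), and with the promoter sgRNA 9 of 11 were (median -0.19).

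Markers of other blood cells had fold changes mostly of the same sign as the globin genes, and none passed the test. Their part in the haemoglobin difference was not tested. For Sim1 heterozygous over wild type, 6 of 6 tested neutrophil genes were positive (median log2 0.65), as were 7 of 8 platelet genes (0.22) and 7 of 8 lymphocyte genes (0.52). The summed normalized count of the 10 neutrophil genes ran from 116 to 178 in the Sim1 heterozygous group, against 88.1 to 129 in wild type. That of the 9 platelet genes was 585 and 515 in Sim1 heterozygous F_3 and F_4 and 307 and 314 in F_1 and M_1, which lay below all wild-type libraries (322 to 382), and that of the 12 lymphocyte genes from 390.3 to 883 against 293 to 744. Most of the neutrophil sum was Mmp9 (mean 86.5 normalized counts) and most of the lymphocyte sum was Ighm (mean 481), so these sums mainly follow single genes. Some defining markers were at 0 in many libraries: Mmp8, Retnlg and Camp of neutrophils in at least 12 of 19, and Ms4a1 and Cd3e of lymphocytes in at least 12. Others were present in more libraries at low counts. Of neutrophils, S100a9, S100a8 and Ngp were at 0 in 1, 4 and 6 libraries (means 6.53, 3.43 and 2.98 normalized counts). Of lymphocytes, Cd79b and Cd79a were at 0 in 1 and 2 libraries (means 5.06 and 3.75). Ppbp, a platelet chemokine gene with at most 22.4 normalized counts in any library, averaged 3.95 with the enhancer sgRNA and 3.70 with the promoter sgRNA. It averaged 16.2 in the Sim1 heterozygous group, against 5.48 in wild type. The best covered platelet genes differed less between the latter groups: Itga2b averaged 154 against 119, Gp1bb 146 against 124 and Gp5 57.15 against 51.7. Against Sim1 heterozygous, all 6 neutrophil genes were negative with the promoter sgRNA (median log2 -0.71) and with the enhancer sgRNA (-1.04).

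Vessel and tissue-edge markers were read beside them. All 10 meningeal fibroblast genes were positive for Sim1 heterozygous over wild type (median log2 0.52) and their sum ran from 2147 to 7676 normalized counts, against 2127 to 6929. Endothelial genes were positive in 4 of 10 (median -0.03), with sums of 6232 to 8524 against 5326 to 7831, and hypoxia genes in 5 of 12 (-0.02). All 10 choroid plexus genes were negative (-1.07), with sums of 1674 to 2539 against 1772 to 80648, where wild type F_3 (13650.1) and F_4 (80648) stood above the other 3 wild-type libraries, which had at most 1984. No gene of these lists passed the test. Microglial genes were positive in 9 of 10 (0.22), astrocyte genes in 6 of 8 (0.04), oligodendrocyte genes in 1 of 8 (-0.14), neuronal genes in 1 of 8 (-0.11), hypothalamic neuron genes in 4 of 10 (-0.19), pericyte and smooth muscle genes in 5 of 8 (0.12) and anterior pituitary genes in 3 of 5 (0.53). The hypothalamic neuron list includes Sim1 itself, whose copy number defines the groups (mean 211 normalized counts in Sim1 heterozygous against 422.5 in wild type). Pmch and Hcrt, peptide genes that mark the lateral hypothalamus, had 8737 to 66551 and 1021 to 9303 normalized counts over the libraries, so the labelled tissue was represented in all 19.

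The genes whose log2 values over the 19 libraries were most like the mean of the 5 genes, among 16232 others with a mean of at least 10, were Akr1b10 (r = 0.81), Pitpnb (0.81), Cox7a1 (0.81), Pnp2 (0.77), Tac1 (0.76), Osgep (0.74), 1700113A16Rik (0.74), Mthfsl (0.74), Sdhaf3 (0.74), Nat8f1 (0.73), Gm17530 (0.73) and Tm2d2 (0.73). Without the 3 libraries of highest haemoglobin each of these r values was smaller, between 0.46 for 1700113A16Rik and 0.72 for Pnp2. None of the 12 was a gene of the erythroid lists, and the correlations are a ranking over 19 libraries of 14.1 to 84.8 M reads. The mean includes Hba-a2, which varied most on the log2 scale, so the ranking also reflects the high and low sets of that gene. With Hba-a2 left out of the mean, the most alike genes were other ones, led by Gpr137b (r = 0.78).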

How the data were processed

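RNA-seq of 19 hypothalamus libraries was analysed, and the 6 deposited Cas9 peak lists were not used here. Per the labels' protocols, RNeasy kits gave the RNA, and Nugen Ovation and Nextera XT reagents the libraries. The sources used here do not state which strand was counted. The submitters' processing notes name STAR 2.5.2b, CASAVA 1.8, DESeq2 1.16.1 and MACS2 2.1.1.20160309 without their roles, and the build mm9, although the table's coordinates lie in GRCm38.

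The deposited table holds 1 normalized count per gene and library, per the file headers, and this is used here as a signal proportional to reads. They deposited stabilized values on a log2 scale, whose further correction is not stated. For 3 comparisons the authors deposited log2 fold changes, a p-value and a false discovery rate. Dividing the normalized counts by the worth of 1 read gave whole reads for at least 99.98% of genes in every library, within 0.0505 of a normalized count, and 14.1 to 84.8 M reads per library. No 2 libraries were identical (0 pairs).

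Limma 3.58.1 (R 4.3.3, trended prior) was fitted to log2(normalized count + 1) of the 20505 genes whose mean was 1 or more. Sex was the covariate, and p-values were adjusted by Benjamini-Hochberg over all genes, with a threshold of 0.05. Exact permutation tests were two-sided. The fits were tested on simulated data. Alternatives were the tools edgeR 4.0.16 and DESeq2 1.42.0, run on reads recovered from the table, and other scalings, pseudocounts, filters, covariates and sets of libraries. A strain term and the fit without the 3 libraries of highest haemoglobin were added after the data were seen.

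The 5 genes and all lists were chosen with earlier results of these data known. The naming rule took the 5 genes, the 12 genes most like their mean, and from each list at most the 4 members of highest mean. Genes named for values at or near 0, Alas1, Hmox1, Cd163, Klf1, Ppbp, Hbq1b, Hbb-y, Pmch and Hcrt were named outside that rule or after their values were seen. The same holds for S100a8, S100a9, Ngp, Cd79a and Cd79b. Promoter sequences are from RefSeq (GRCm38.p6). Some genes of the lists are not reported here by name.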

Additional observations from a re-analysis of the deposited data

Results flagged for a closer look

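A library of a group was set apart when its gap to the nearest other library exceeded Dixon's 95% critical value of the group's range. Of 20 groups of values (5 genes in 4 groups) 7 met this. Chance flags about 1 in 20 independent groups, but these groups are not independent, so the count cannot be set against that rate. Hbb-bt, Hbb-bs, Hba-a1 and Alas2 varied together, and their wild-type flags come from the same animal. Wild type F_2, the B6 wild-type animal, stood above the other 4 wild-type libraries with 609 normalized counts of Hbb-bt, 9679.7 of Hbb-bs, 3498 of Hba-a1 and 370.4 of Alas2. In the same library Hba-a2 stood at 3.5. Promoter sgRNA M_3 stood above the other 5 promoter sgRNA libraries with 279 normalized counts of Alas2. Enhancer sgRNA F_1, with 151.5 normalized counts, and wild type F_3, with 160.8, stood above the rest of their groups in Hba-a2, and both belong to the 6 libraries in which that gene took 16.7% to 18.8% of the alpha-globin reads.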

How the results depend on the processing

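None of the 5 genes passed the adjusted threshold in any setting tried: of 1080 values in settings other than the reported one, 1010 kept their sign and 70 changed it, and the smallest adjusted p was 0.207. For Sim1 heterozygous over wild type, Hbb-bt, Hbb-bs, Hba-a1 and Alas2 kept a positive log2 fold change throughout. Where a sign or a count changed, the cause was not tested. The shallowest library (14.1 M reads) was among the 6 with high Hba-a2. The deepest (84.8 M) was among the 13 with at most 10.5 normalized counts, but so was the next shallowest, enhancer sgRNA M_1 (14.6 M).

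The number of genes of the whole table that passed was 0 as reported in every comparison. For Sim1 heterozygous over wild type it was 6 on stabilized values, 1 with age added, 1 with only the groups compared and 7 in DESeq2. For enhancer sgRNA over Sim1 heterozygous it was 1 without the sex covariate, 3 with age added and 13 in DESeq2. For promoter sgRNA it was 3 over Sim1 heterozygous in DESeq2 and 1 over wild type on stabilized values. Leaving out 1 library at a time gave 0 to 1 for Sim1 heterozygous over wild type and 0 to 3 for enhancer sgRNA over Sim1 heterozygous.

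The log2 fold change of Hbb-bs for promoter sgRNA over wild type (0.01) was -0.200 in DESeq2, -0.204 in edgeR, -0.264 in females, -0.0152 with age added, -0.00280 without the sex covariate and -0.0358 with only the groups compared. That of Hba-a1 (0.01) was -0.126 in DESeq2, -0.125 in edgeR, -0.122 in females, -0.0296 with age added and -0.0382 with only the groups compared. That of Alas2 (0.19) was -0.0509 in DESeq2, -0.0309 in edgeR and -0.0324 in females. For enhancer sgRNA over wild type, Hbb-bs (-0.06) was 0.0197 in females, 0.00536 with only the groups compared, 0.256 on stabilized values, 0.246 with strain added, 0.361 without 4 libraries that stood apart in earlier results (F_5 and M_3 with the promoter sgRNA, F_4 of the Sim1 heterozygous group and F_2 of the wild type), 0.319 without the B6 animals and 0.291 without the 3 libraries of highest haemoglobin, and Alas2 (0.22) was -0.00162 in DESeq2. For enhancer over promoter sgRNA, Hbb-bs (-0.08) was 0.283 in females and 0.129 without these 4 libraries, and Alas2 (0.03) was -0.0262 with only the groups compared and -0.0192 without the 3 libraries. Hba-a2 for Sim1 heterozygous over wild type (-0.16) was 0.0787 with a pseudocount of 0.5 and -3.00 in edgeR, and Hbb-bt for enhancer sgRNA over Sim1 heterozygous (-0.95) was 0.0844 without the 3 libraries.

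Leaving out 1 library at a time gave, for promoter sgRNA over wild type, -0.164 to 0.437 for Hbb-bs, -0.179 to 0.402 for Hba-a1 and -0.0549 to 0.622 for Alas2. For enhancer sgRNA over wild type it gave -0.390 to 0.343 for Hbb-bs, -0.140 to 0.550 for Hba-a1 and -0.123 to 0.633 for Alas2. For enhancer over promoter sgRNA it gave -0.384 to 0.137, -0.131 to 0.475 and -0.291 to 0.344 for these genes in the same order. Hba-a2 ran from -0.779 to 1.06 for Sim1 heterozygous over wild type, from 0.608 to 3.12 for enhancer sgRNA over Sim1 heterozygous and from 0.418 to 2.99 for enhancer sgRNA over wild type, the lowest of the enhancer values being those without enhancer sgRNA F_1.

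Same-numbered libraries of different groups were checked for pairing: 14 of 20 pairs correlated above 0.1 in their deviations (-0.229 to 0.448, median 0.260), and 6 did not. The labels give the numbers no meaning and not every pair exceeded 0.1, which was the condition set for pairing, so the numbers were not taken to pair the animals, although most same-numbered libraries deviated together. With the replicate number as a block, 4 genes passed for Sim1 heterozygous over wild type and 4 for enhancer sgRNA over Sim1 heterozygous. Under the block Hbb-bs was -0.0604 and Hba-a1 -0.0487 for promoter sgRNA over wild type, and Hbb-bs was 0.0284 and Alas2 -0.00891 for enhancer over promoter sgRNA.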

Other observations

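The genes in this paragraph were chosen after their values were seen, and nothing was tested. The ranking by Pearson correlation with Hba-a2 over 19 libraries rests on its sets of 6 and 13 libraries, so no r is given for it. Among 16232 genes with a mean of at least 10 normalized counts, the 12 whose log2 values were most like those of Hba-a2 were led by Asb3, on chromosome 11 at 1.41 Mb from Hba-a2, and the 6 libraries with the most Asb3 were the same 6 as for Hba-a2. Asb3 had 525 to 609 normalized counts in those 6 libraries and 347 to 456 in the other 13. Of the 12, 5 lie on chromosome 11 (Asb3, Cfap36, Thg1l, Bod1 and Ccdc137), which holds 8.07% of the genes ranked, and 4 on chromosome 14 (Gm26782, Tmem260, Ppp1r3e and Ang), which holds 3.42%. Bod1 lies 0.631 Mb and Cfap36 3.07 Mb from Hba-a2, and each shared 5 of its 6 highest libraries with it.

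The likeness to the mean without Hba-a2, a ranking added after the data were seen, named Gpr137b first (r = 0.78, and 0.18 without the 3 libraries of highest haemoglobin). It also held Vav1, a gene of haematopoietic signalling, Fcna, a ficolin, and the non-coding RNA genes Rmrp and Rpph1. Rpph1 had 1367, 1744 and 2187 normalized counts in Sim1 heterozygous F_3 and F_4 and wild type F_2. It had 2273 in promoter sgRNA M_3 and at most 538 in every other library. The libraries of highest haemoglobin thus also stood apart in this RNA, and the reason was not tested.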
